A study of Mus musculus with 20 samples.

Results

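Nfia, the mouse gene for the transcription factor nuclear factor I/A, was followed in Hepa1-6 hepatoma cells whose glutamine supply was switched on and off. All probes whose gene symbol in the platform annotation was Nfia were taken, which gave 1 spotted probe (probe number 13823, Entrez gene 18027) of 14718 probes with a single symbol for 13406 genes. The gene was chosen by its measured log2 ratio averaged over the time points, so its mean level is given below as a description and was not tested. Experimental flasks received medium without glutamine (0 mM) at the start, 4 mM glutamine after 24 h, 0 mM again after 48 h and 4 mM again after 72 h, until 96 h. Control flasks held 4 mM glutamine at every exchange. All flasks were confluent when the series began, and all media held 25 mM glucose and the serum replacement CPSR-3. RNA of a varied (experimental) flask, labelled with Cy5, and of a constant (control) flask, labelled with Cy3, was hybridised together to each of 20 spotted DNA arrays.

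The arrays covered 11 numbered time points, with 2 arrays at 9 of them and 1 at time points 5 and 11. Hours and glutamine levels are not tied to the time point numbers in the labels, so no switch could be set against a value. They do not say whether a second array (titled r) is another flask or a repeat hybridisation. The p-values of comparisons among time points may therefore measure technical spread only. Those of a mean over time points rest on the spread between time points, which were treated as independent although they belong to 1 series. Values were read as log2 ratios of varied over constant glutamine, which is the likely direction given the labels' dyes. No dye swap was made, so a difference between flasks that held at every time point and a dye bias of the probe cannot be told apart. Between 4269 and 8269 of 17280 spots had a value on an array (24.7% to 47.9%), and the number of arrays limits the precision. The 2 arrays of a time point correlated over spots with Pearson's r of 0.518 to 0.691 at 7 time points, but with 0.0539 at time point 6 and -0.0168 at time point 10. On the later of the arrays of time point 10, 111 spots shared 1 very high value. Each array was centred on its median, which had been between 0.05 and 0.435 as deposited.

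Nuclear factor I proteins, encoded by Nfia, Nfib, Nfic and Nfix, bind DNA as dimers of any pairing and recognise a palindrome of the half-site TTGGC. They switch genes on or off depending on the promoter. Nfia is best known for starting the formation of astrocytes in the embryonic mouse and chick spinal cord, for activating the brown fat programme in mouse, and for its part in the choice between red cell and granulocyte fates of human blood progenitors. In liver, sites of this family lie in promoters such as that of albumin.

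A promoter window of Nfia is shown because the family's own recognition site can be searched in it. RefSeq's table for GRCm38.p6 places the window at chr4:97581693-97581992 on the plus strand, from 250 bases before to 50 after the annotated start, in a gene that spans chr4:97578066-98118876. The window thus lies inside the gene, at an internal start, and does not cover the sequence before the gene's outermost start. The capitals mark TGCCA, the reverse complement of TGGCA, a string that shares the letters TGGC with the half-site TTGGC but is not that half-site, and was searched beside it.
Nfia promoter: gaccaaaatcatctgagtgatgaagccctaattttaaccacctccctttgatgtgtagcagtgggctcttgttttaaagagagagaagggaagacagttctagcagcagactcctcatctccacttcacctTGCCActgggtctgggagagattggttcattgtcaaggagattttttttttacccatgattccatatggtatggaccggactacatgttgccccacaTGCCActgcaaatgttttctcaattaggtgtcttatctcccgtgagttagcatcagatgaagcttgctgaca
The letters TGGCA or TGCCA occurred 2 times, at positions -119 and -22 from the start, and 48.9% of 32851 windows of this length held them at least once. The letters TTGGC or GCCAA, which overlap TGGCA in the run TTGGCA, were not in this window, against 46.7% of all windows. The palindrome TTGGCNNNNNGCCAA was not in it either, and 12 of all windows (0.0365%) held it. These are letter matches on both strands of 1 annotated start and say nothing of binding in these cells. The GC content of the window was 44.7%, against a median of 52.7% over all windows.

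Nfia lay above the array median on each of the 19 arrays on which it had a value. The centred log2 ratio was 0.89 and 0.97 on the arrays of time point 1, 0.71 and 0.91 at time point 2, and 0.44 and 0.64 at time point 3. It was 0.745 and 1.00 at time point 4, 0.37 on the single array of time point 5, and 1.05 on the first array of time point 6, whose second array was blank for this spot. The early arrays were thus high, apart from those of time points 3 and 5.
At time point 7 the probe read 1.14 and 0.64, at time point 8 0.56 and 0.60, and at time point 9 0.67 and 0.55. It read 0.50 and 0.26 at time point 10 and 0.37 on the single array of time point 11. The late arrays from time point 8 on all lay below those of time points 1, 2 and 4. Over the 19 arrays the lowest log2 ratio was 0.26, the median 0.64 and the highest 1.14. Read as base 2, these correspond to 1.20, 1.56 and 2.20 times as much signal from varied as from constant glutamine, each relative to the median spot.

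**Figure D1:**
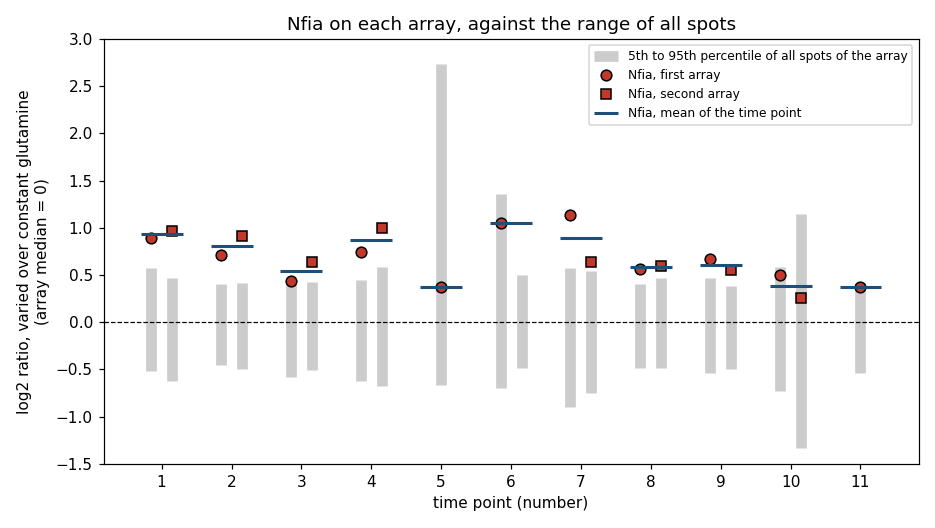
The y axis gives the log2 ratio of varied over constant glutamine with the array median at 0, and the x axis the time point number. Points are Nfia on the first (circle) and second (square) array, blue bars are time-point means, and grey bars run from the 5th to the 95th percentile of all spots of that array. All 19 Nfia points lie above 0, between 0.26 and 1.14, and 6 of them, at time points 3 (first array), 5, 6, 10 (both arrays) and 11, lie within the grey bar.

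Averaged over time points, the log2 ratio of Nfia was 0.67 ± 0.25 (SD, n = 11 time points), or 1.59 times on a linear scale, and it was positive at 11 of 11. Of the 4752 genes measured at 9 time points or more, 13.6% were called higher and 9.05% lower in varied glutamine by limma (Benjamini-Hochberg adjusted p under 0.05). Without centring, 2895 genes were called, 2849 of them higher. Since this mean chose the gene, nothing is read from those shares about Nfia. By its mean it stood at place 76. The 75 genes above it all had a larger SD than Nfia, with a median SD of 2.56, and 3 of them were called. Close above it stood Aif1, a calcium-binding protein known from macrophages, at 0.69 ± 0.34 (SD, n = 11), which was positive at all 11 time points. Of the 75 genes, 8 more were positive at all 11, with means of 0.94 to 1.31 and SDs of 2.43 to 2.55: Tha1, Spn, Ep400, an unnamed probe, Apba2, Mrpl16, Chmp5 and Sorcs3. Over all genes with a value at 11 time points, 222 of 3031 (7.32%) were positive at each. The lowest time-point value of Nfia, 0.37, was matched by Aif1 and exceeded by none of these 3031 genes. Nfia had this value at time points 5 and 11. At time point 5 the spots at its place in the numbering were raised, and Nfia was -0.09 against their median, as described below. The SD of Nfia over time points was ordinary, at place 1650 of 3031 from the lowest, where the median SD was 0.24.
Without the second arrays of time points 6 and 10 and without the first of every 20 spots (18 arrays in all), Nfia averaged 0.69 ± 0.24 (SD, n = 11) and stood at place 3 of 4277 genes, and its lowest time-point value took place 4 of 2572. In that set 20.6% of genes were called higher and 12.2% lower.

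How far Nfia stood out on an array depended on the array. At its extreme, on the first array of time point 7, 4 spots (0.0658%) were at or above it, counting the probe itself. The median share over all arrays with a value was 1.09%. At the other extreme, 35.5% of spots were at or above it on array 2 of time point 10, and 25.3% at time point 5. Leaving out time points 5, 6 and 10, the share ran from 0.0658% to 7.62% over 15 arrays, with a median of 0.883%.

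On 2 arrays the log2 ratios of spots differed by their place in the numbering, and the place of Nfia was among the raised ones. Spots are numbered in order, and Nfia holds the third place in each run of 20 numbers. On the array of time point 5 the median log2 ratio of the spots at places 1, 2, 3 and 4 was 2.72, 1.24, 0.46 and 0.14, and on the first array of time point 6 it was 1.28, 0.33, 0.13 and 0.00. On the other 18 arrays the median at the third place lay between -0.065 and 0.05. Set against its own place, Nfia was at -0.09 at time point 5, where 54.3% of 473 spots of that place were at or above it, and at 0.92 at time point 6. On the other 17 arrays with a value it was 0.30 to 1.11 above its place, so only the value at time point 5 did not exceed that of its place. With every place centred separately, an alternative chosen after seeing the data, the mean over time points was 0.63 ± 0.32 (SD, n = 11). Without time points 5 and 6 and the second array of time point 10 it was 0.68 ± 0.20 over the other 9 time points.
In the block of 540 spot numbers that holds Nfia the median lay between -0.09 and 0.25, and Nfia exceeded it by 0.21 to 0.96 on all 19 arrays. This median was 0.25 on the second array of time point 4 and 0.18 on the first of time point 7, where Nfia was high. It was -0.09 at time point 5, where Nfia was low, but 0.22 on the first array of time point 9, where Nfia read 0.67. With blocks centred separately, Nfia averaged 0.62 ± 0.19 (SD, n = 11), and the F-test among time points gave F = 2.02 (limma adjusted p 0.346). A part of the block in the level of Nfia was not tested. Of the 10 probes nearest by number, 6 had values, with averages between -0.23 (Pou5f2) and 0.18 (Dnajb4, a heat-shock chaperone).

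**Figure D2:**
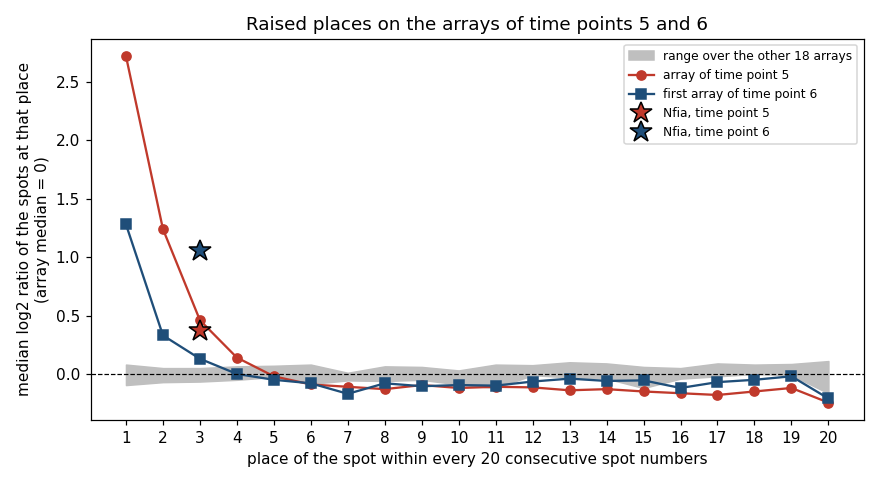
The y axis gives the median log2 ratio (array median at 0) of all spots that share a place, and the x axis that place within every 20 consecutive spot numbers. Red circles are the array of time point 5, blue squares the first array of time point 6, the grey band is the range over the other 18 arrays, and the stars are Nfia at the third place. At time point 5 the star (0.37) lies just under the median of its place (0.46), and at time point 6 (1.05) far above it (0.13).

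Whether Nfia differed among time points was tested, since that test does not use the mean by which the gene was chosen. If a steady ratio over time points also entered the choice, the test is not free of it. The time-point means, in order from 1 to 11, ran 0.93, 0.81, 0.54, 0.87, 0.37, 1.05, 0.89, 0.58, 0.61, 0.38 and 0.37. From high to low the order was time points 6, 1, 7, 4, 2, 9, 8, 3 and 10, followed by 5 and 11 at the same level. Neighbours in this order were 0 to 0.20 apart. The limma SD within a time point was 0.187 on the log2 scale, and the single step larger than that was the one of 0.20 between time points 2 and 9.
The F-test of equal time points gave F = 2.57, with a limma adjusted p of 0.283 (unadjusted 0.0682), so no difference among time points was called. The same test called 262 of 3744 genes (7%), a count that ran from 89 without time point 5 to 1799 without the first array of time point 10. On 18 arrays the limma adjusted p was 0.0958. Second arrays differed from first ones by 0.04 to 0.255 in size at 7 time points. At time point 7 the second array was 0.50 lower than the first, a gap larger than in 86.0% of 4025 genes.

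Comparisons of stages of the sampling, all in limma fits over every gene, did not separate Nfia either. Time points 8 and 9 averaged 0.595, against 0.89 at time point 7, a difference of -0.295 ± 0.16 (SE) with a 95% interval from -0.65 to 0.06 and an adjusted p of 0.527 (2.63% of 3617 genes were called). Leaving out the first array of time point 7 brought that difference to -0.045. Time points 10 and 11 averaged 0.375, against 0.595 at 8 and 9, which is -0.22 ± 0.15 with an interval from -0.55 to 0.11 and an adjusted p of 0.616 (0.439% of 3414 genes were called). The intervals of both steps include 0.
Time point 7 averaged 0.89, against 0.71 at 3 and 4, with a difference of 0.18 ± 0.16 (interval -0.17 to 0.54) and an adjusted p of 0.710, where 3.57% of 3721 genes were called. Without the first array of time point 7 its sign turned, to -0.07. Time points 3 and 4 averaged 0.71, against 0.87 at 1 and 2 (difference -0.16 ± 0.13, interval -0.45 to 0.13, adjusted p 0.984). Time points 8 and 9, at 0.595, were set against 3 and 4, at 0.71 (difference -0.11 ± 0.13, interval -0.40 to 0.18, adjusted p 0.943), and without time point 4 this difference was 0.055. These last 2 comparisons called 0% of genes, 0 of 3732 and 0 of 3621, while 192 and 264 genes had an unadjusted limma p under 0.05.

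The other family members had lower means than Nfia. Nfib, which acts in lung and brain development in mouse, had a value on 16 arrays and averaged -0.00 ± 0.66 (SD, n = 10; limma adjusted p 0.986). By array it read -0.11 and -0.07 at time point 1, 0.02 and 0.17 at 2, 0.60 and 0.21 at 3, and 0.395 and -0.08 at 4. It read 0.07 at time point 5, 0.02 at 6, 0.39 and 0.56 at 7, 0.36 and 0.22 at 9, -1.82 on the second array of time point 10, and 0.35 at 11. That single array, 1 of those that stand apart, set its mean: without it and the second array of time point 6, Nfib averaged 0.21 ± 0.18 (SD, n = 9) and was called higher (limma adjusted p 0.0296).
Nfix, known for its part in fetal muscle and brain of the mouse, had 13 arrays and 8 time points, too few for the test, with a mean of 0.00 ± 0.23 (SD, n = 8) and single arrays from -0.48 to 0.39. Of the 2 probes for Nfic, which serves tooth root formation in mouse, 1 had no value and the other had 6, from -0.41 to 2.58. The value of 2.58 came from time point 5 and from the third place of 20, and the other 5 lay between -0.41 and 0.02. Nfib and Nfix hold places 2 and 4 of 20, whose medians at time point 5 were 1.24 and 0.14. On that array Nfib read 0.07 and Nfix 0.28. On the same arrays Nfia was above Nfib on 15 of 16, above Nfix on 13 of 13 and above Nfic on 4 of 5. The mean of Nfia minus Nfib was 0.69 ± 0.63 (SD) over 10 time points, and of Nfia minus Nfix 0.63 ± 0.40 over 8. These are differences between ratios, not between levels of the genes, and carry no test because Nfia was chosen for being high.

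**Figure D3:**
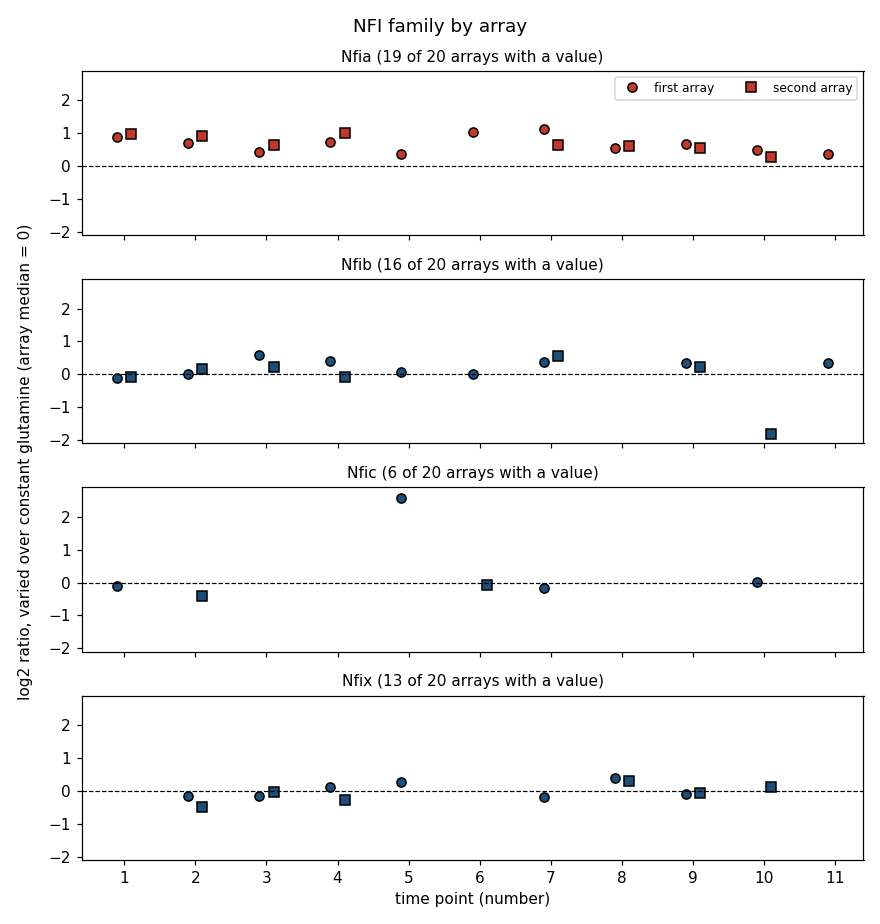
The y axis of each panel gives the log2 ratio of varied over constant glutamine (array median at 0) on a common scale, and the x axis the time point number. Circles are first and squares second arrays of a time point. Nfia is above 0 on all 19 arrays, whereas Nfib and Nfix lie on both sides of 0, and the points of -1.82 (Nfib, time point 10) and 2.58 (Nfic, time point 5) come from arrays that stand apart.

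Genes upstream of Nfia were described from lists chosen with earlier results of these data known, each count beside the 13.6% higher and 9.05% lower of all genes and their median of 0.02. In neural progenitors, Notch signalling and Sox9 act upstream of Nfia. Of the 8 tested Notch-pathway, Sox and Pou3f2 genes, 2 were higher and 1 lower in varied glutamine, and their median was 0.06. Hes1, a repressor switched on by Notch, averaged 0.32 ± 0.29 (SD, n = 10; limma adjusted p 0.0226), and Jag2, a Notch ligand, 0.17 ± 0.14 (SD, n = 11; limma adjusted p 0.0261). Hey1, another Notch target, averaged -0.18 ± 0.20 (SD, n = 11, limma adjusted p 0.05002) and just missed the threshold. On 18 arrays Hey1 was called lower (limma adjusted p 0.0414). There 2 of 7 tested genes of this list were higher and 2 lower, against 20.6% higher and 12.2% lower of all genes. The receptor Notch3 was lower, at -0.84 ± 0.32 (SD, n = 11; limma adjusted p 0.000287). Sox9 averaged -0.01 and was not called, and Notch1, Dll1, Hes5 and Sox2 had no value on any array. Of the Smad factors, whose DNA-binding domain is related to that of the nuclear factor I proteins, only Smad4 had enough values. This shared partner of the receptor-activated Smads averaged 0.20 ± 0.21 (SD, n = 11; limma adjusted p 0.0425), and missed the threshold on 18 arrays (adjusted p 0.0680).

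Genes of astrocytes, fat and blood, lineages in which Nfia is known to act elsewhere, were listed too. Of 15 astrocyte genes with a probe, 4 could be tested and 1 was called higher. The list median was -0.08, against 13.6% higher, 9.05% lower and a median of 0.02 over all genes. S100b, a calcium-binding protein of astrocytes, averaged 0.55 ± 0.29 (SD, n = 11; limma adjusted p 0.00106). The lipid carrier gene Apoe averaged -0.28 ± 0.37 (SD, n = 11; limma adjusted p 0.0645) and was called lower on 18 arrays (adjusted p 0.0311), and the Wnt inhibitor gene Apcdd1 averaged -0.21 ± 0.61 (SD, n = 11; limma adjusted p 0.362). The defining astrocyte filament gene Gfap averaged 0.05 on 16 arrays (adjusted p 0.79), and Slc1a3 had no value. On 18 arrays 3 genes of this list were tested, 1 higher and 1 lower, with a median of -0.17. Over all genes on 18 arrays 20.6% were higher and 12.2% lower, with a median of 0.02. Of 4 tested fat genes (median -0.11), 1 was higher and 1 lower. The brown fat regulator Prdm16 was higher at 0.32 ± 0.22 (SD, n = 11; limma adjusted p 0.00521), and Cebpb, a factor of fat cell and liver programmes, was lower at -0.64 ± 0.41 (SD, n = 11; limma adjusted p 0.00225). Of blood genes 2 could be tested (median 0.49). Aif1, known from macrophages, was higher (limma adjusted p 0.000759), and the erythroid factor Gata1 averaged 0.28 (limma adjusted p 0.133). The leukocyte genes Ptprc, Cd68 and Itgam had no value. The spots of Gfap and Gata1 hold the first place of 20, which was raised at time points 5 and 6, and both are therefore not among the genes of the 18 arrays. Their highest time-point values were 1.17 and 1.15. These lists rest on 10 tested genes in all.

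Liver markers were compared between varied and constant glutamine. Their values are ratios and do not show how strongly a marker was expressed. Of 16 hepatoma and hepatocyte markers with a probe, 13 had a value, whereas Afp, Apoh and Fga had none, and 8 could be tested (median -0.16), of which 1 was higher and 3 lower. Alb, the serum albumin gene, was lower at -0.56 ± 0.21 (SD, n = 9; limma adjusted p 0.000759), as were the keratin gene Krt8 at -0.25 ± 0.19 (SD, n = 10; limma adjusted p 0.0148) and Itih3, a plasma protease inhibitor component, at -0.29 ± 0.28 (SD, n = 9; limma adjusted p 0.0442). Apoc3, an apolipoprotein, was higher at 0.24 ± 0.17 (SD, n = 11; limma adjusted p 0.00849). Of 7 tested liver-enriched transcription factors, 3 were lower and none higher, with a median of -0.15, against 9.05% lower and 13.6% higher over all genes. These were Cebpb, the drug-sensing receptor Nr1i2 at -0.61 ± 0.25 (SD, n = 9; limma adjusted p 0.000828) and Foxa1 at -0.27 ± 0.26 (SD, n = 10; limma adjusted p 0.0321). Hnf4a, a central hepatocyte factor, averaged 0.07 (adjusted p 0.267). In these bulk samples fewer cells of a kind and less RNA per cell cannot be told apart. The 1 tested kidney gene, the water channel Aqp2, which served as a marker of another tissue, was lower at -0.27 ± 0.31 (SD, n = 11; limma adjusted p 0.0483). Of the 15 listed genes called across all lists, 7 were higher, and Aif1 alone had a mean above that of Nfia. Over all genes 1076 of 4752 were called, 646 of them higher. The lists were chosen with earlier results known, so the count of 15 is a description only. Without time point 4 the count of listed genes was 8 (722 over all genes), and without time point 9 it was 9 (752 over all genes).

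**Figure D4:**
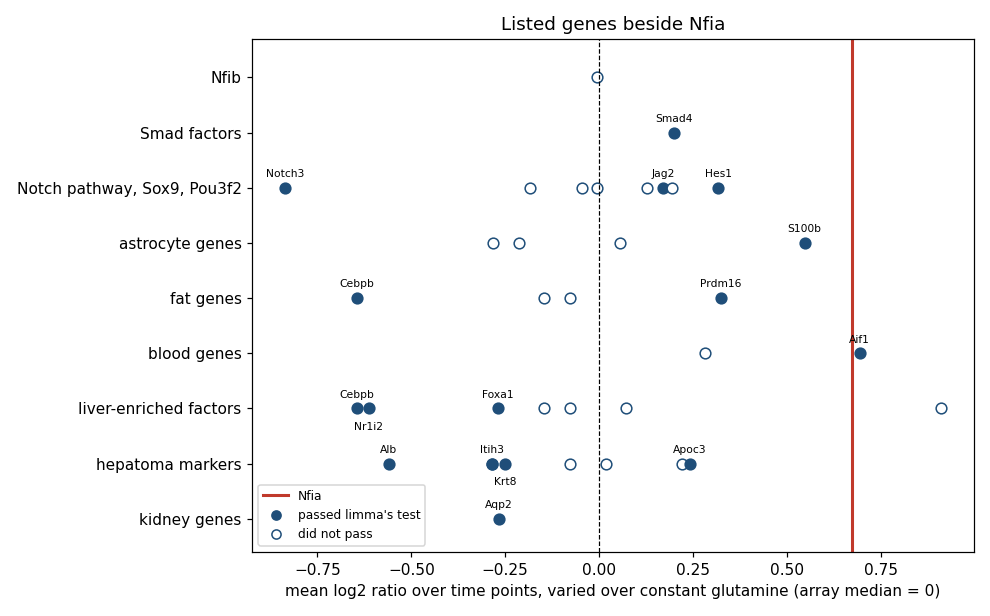
The x axis gives the mean log2 ratio over time points of each listed gene that could be tested, and rows are the lists. Filled points passed limma's test (adjusted p under 0.05), open points did not, and the red line is Nfia at 0.67. Apart from Aif1 (0.69) and an open point of the liver-enriched factors (Nr2f2 at 0.91), all genes lie left of the line. Nr2f2 had an SD of 2.52 and a highest time-point value of 8.495, and averaged 0.15 on 18 arrays.

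The genes most like Nfia were named by 2 measures over the 11 time-point means, among 3030 other genes with all of them. By Pearson's r, which ignores the mean, the closest were Zbtb49 (0.934), a zinc finger factor, Scml4 (0.904), a Polycomb-related protein, Smurf2 (0.902), a ubiquitin ligase, Krtcap2 (0.882) and the unnamed probe 13871 (0.879). The median r over all genes was 0.056 and the 95th percentile 0.719. Their own means were 0.21, 0.14, -0.03, 0.24 and -0.01, all below that of Nfia. Like Nfia, all 5 were lower at time points 3 and 5 than at 2, 4 and 6, but other steps differed, such as those from time point 6 to 7, where Scml4 and Krtcap2 were higher at 7 and Nfia was not. Of these 5, only Smurf2 was among the first 5 on 18 arrays (r of 0.907). Zbtb49 (spot number 13697) and probe 13871 lie in the same block of 540 numbers as Nfia (13823). Whether position adds to the likeness was not tested.
By root mean square difference, which does count the mean, the closest were Ndc80 (0.182), a kinetochore protein, Marchf3 (0.238), a ubiquitin ligase, 6530415H11Rik (0.246), the unnamed probe 9434 (0.251) and Ing4 (0.279), a chromatin reader. The median difference over all genes was 0.715 and the 5th percentile 0.448. Their means were 0.54, 0.51, 0.53, 0.61 and 0.45, and 4 of the 5 were also among the first 5 on 18 arrays, where probe 9434 came first (0.127). The spot numbers of these 5 lay close together, between 9169 and 10177 of 17280, and a part of position was not tested here either. None of the 10 genes was called by the F-test over time points, with limma adjusted p of 0.397 to 0.894. All points of these profiles share arrays and centring, so r and the differences are descriptions with no test. The spot of Nfia lies at a place that was raised at time points 5 and 6, whereas those of the 10 genes do not.

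**Figure D5:**
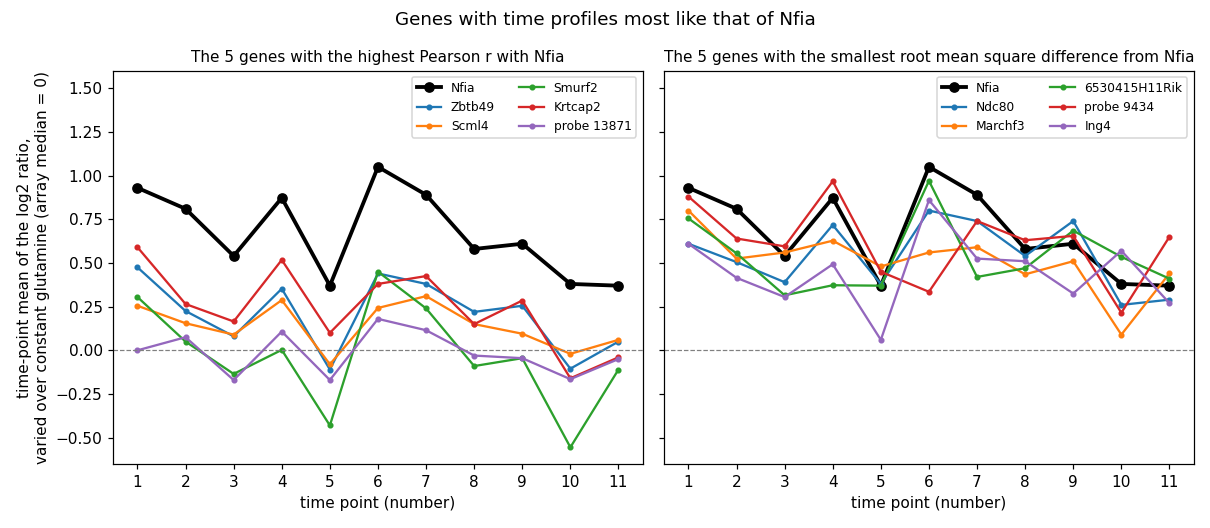
The y axis gives the time-point mean of the log2 ratio of varied over constant glutamine (array median at 0), and the x axis the time point number. Black is Nfia, and colours are the 5 genes with the highest Pearson's r (left) and with the smallest root mean square difference (right). Lines on the left run below Nfia and, like it, are lower at time points 3 and 5 than at 2, 4 and 6, while other steps differ, and those on the right stay between 0.06 and 0.97 and cross it.

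On chromosome 4 no comparison with neighbours could be made. The 5 annotated genes on either side of Nfia in RefSeq's GRCm38.p6 table are long non-coding RNAs, pseudogenes and 1 small nuclear RNA, and no probe of the array carried any of their symbols.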

How the data were processed

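RNA of varied (Cy5) and constant (Cy3) glutamine flasks was hybridised to 20 two-colour spotted arrays, per the labels. The authors deposited 1 value per spot and array, read here as a log2 ratio. The base, direction and normalization of the deposited log2 values, and the software and genome build, are not given in the sources used here. GEO's annotation of the platform named 14718 probes by 1 symbol (1 had several, 2562 none usable), and 14445 annotated probes matched RefSeq's gene table without a symbol changing. A label of 1 array of time point 4 that differs from the protocol was treated as a slip, with an alternative that leaves time point 4 out.

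Each array was centred on its median and probes of a symbol were averaged. After averaging the arrays within time points, limma 3.58.1 in R 4.3.3 tested the mean over time points of genes with values at 9 or more (lmFit, eBayes). A second fit, with 1 mean per time point and genes with values on 16 or more arrays, gave the F-test and 5 contrasts. Benjamini-Hochberg adjustment ran over all genes of a fit, with 0.05 as the threshold. Both fits were tested on simulated data. Members and lists were chosen with earlier results of these data known. Named genes are Nfia, its family, up to 4 called genes per list (or, with none called, 2 of the largest means), the 5 most alike by each of 2 measures, and genes next to Nfia on its chromosome. Genes without a value, listed genes that were not called and the larger means above Nfia were named beyond this rule, after their values were seen. No same-numbered pairing beyond the title's r is given, and a block for r is an alternative. The other alternatives were no centring, blocks of 540 spots centred, 18 arrays, scaled spread, other minimum numbers of values, robust eBayes, and leaving out each time point or array. Centring by place of 20 spots, and 16 arrays without time points 5 and 6 and the second array of 10, were added after seeing the data.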

Additional observations from a re-analysis of the deposited data

How the results depend on the processing

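The mean log2 ratio of Nfia ran from 0.62 to 0.925 over 20 alternatives. Its sign carries no support, because the gene was chosen for this mean. All 11 time-point means were positive, so leaving out a time point could not turn it. Other minimum numbers of values left the mean of Nfia as it was. The highest came from no centring, where 2895 genes were called for their mean (2849 higher), against 1076 with centring. Leaving out single time points gave Nfia means of 0.64 (without 6) to 0.70 (without 5) and 722 to 1175 called genes. Listed genes called numbered 15, but 8 without time point 4 and 9 without time point 9 (range 8 to 13 over single time points left out). The F-test did not call Nfia in any of 30 alternatives (limma adjusted p 0.0509 to 0.993). Without the first array of time point 10, which leaves the second alone, it was 0.0509, and over single arrays left out the range was 0.0509 to 0.414. A replicate block for arrays titled r gave 0.357 and 188 called genes. The labels do not say that r pairs arrays. Genes called by the F-test numbered 262, but 1059 on 18 arrays, 142 without time point 4, 174 with places centred, 479 on 16 arrays, and 89 (without time point 5) to 1799 (without the first array of time point 10) over single arrays left out. The cause was not tested. Contrasts of Nfia were not called in any of 30 alternatives each. The sign turned in 1 each for time points 7 minus 3 and 4 (-0.07, without the first array of 7) and 8 and 9 minus 3 and 4 (0.055, without time point 4). Over single arrays left out the first ran from -0.07 to 0.43 and 8 and 9 minus 7 from -0.545 to -0.045.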
